A study of Mus musculus with 14 samples.

Results

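Knockdown of ABCF1 was compared with a scrambled hairpin at the level of RNA in mouse embryonic fibroblasts, the connective tissue cells that grow out of dissociated mouse embryos. The comparison uses 4 of the 14 libraries of the series: RNA-seq of cells with a hairpin against ABCF1 (shABCF1, replicates 1 and 2) and of cells with the scrambled control hairpin (Scram, replicates 1 and 2), set against each other within the same replicate number. The series asks how mRNAs are translated without eIF4F, the complex that binds the mRNA cap. It also holds ribosome footprint libraries, a METTL3 knockdown (shMETTL3) and a Torin1 treatment. All cells were of the C57BL/6J strain, were grown in DMEM with 10% fetal bovine serum to 80% confluence, and were washed and lysed with cycloheximide at 100 µg/ml. The shared protocol also names a short treatment with DMSO or Torin1, without saying which of the 4 libraries received DMSO. The labels do not give the sequence and number of the hairpins, or whether the lines were clones or pools. They also do not say whether the replicates were separate cultures. A p-value therefore measures only the spread between libraries, estimated from these 4 and the 2 shMETTL3 RNA-seq libraries together. Of 13389 genes with an RNA value, 10098 were tested, and 8123 of these were listed in all 4 libraries.

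ABCF1 belongs to the ABC proteins that bind and hydrolyse ATP but have no membrane-spanning part. It associates with ribosomes and with eIF2, the factor that carries the initiator tRNA to the small ribosomal subunit, and it takes part in the start of translation. It has also been described in mouse fibroblasts as a partner of cytosolic DNA sensing and in macrophages as a ubiquitin-conjugating enzyme. A knockdown may therefore be read at the level of RNA in genes of the translation machinery, of the response to amino acid shortage and of innate immunity, next to fibroblast genes such as collagens and actin-binding proteins.

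The RNA-seq libraries hold fragments of 40 to 60 nt, and their deposited RPKM values imply 1360434 and 1395271 assigned reads in shABCF1 and 1709201 and 3802696 in Scram. Replicates 1 and 2 differed in ways that do not follow the groups. Lars2 took no reads in either replicate 1 library and 41.6% and 35.4% of the reads in the shABCF1 and Scram replicate 2 libraries, and Tmem38b a further 10.6% and 8.21% there. With both genes left out, 666738 reads remained in shABCF1 replicate 2, the fewest of the 4, and 2145717 in Scram replicate 2. Replicate 1 files list transcripts from 1 read up and replicate 2 files from about 5. Replicate 1 files also split many genes over transcripts, with 16670 transcripts of 12371 genes in shABCF1 and 16541 of 12141 in Scram. Replicate 2 files list about 1 per gene, with 9502 of 9499 and 10752 of 10744. As 1 transcript per gene was kept, a level in replicate 1 may cover only part of a gene's reads. The part of this in differences between the numbers was not tested. Levels correlated across genes at 0.878 to 0.972 between libraries of the same number and at 0.489 to 0.574 between numbers, so all differences below are taken within a number. All 9 fibroblast markers were tested, with summed levels of 2170 and 3750 (RPKM after rescaling) in shABCF1 and 3610 and 3810 in Scram. Of the other cell types' markers only Krt18 of the epithelium and Cd68 of leukocytes passed the filter, while markers of endothelium, muscle, neurons, adipocytes, pluripotent and erythroid cells had no tested member.

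Abcf1 itself was lower in the knockdown in both replicates. The gene (ENSMUSG00000038762.15, GRCm38 chromosome 17, 35956819 to 35969761, minus strand, protein coding) had 14.6 and 28.4 scaled RPKM in the shABCF1 libraries of replicates 1 and 2, against 49.2 and 59.0 in the Scram libraries. In all that follows, paired values stand in the order replicate 1, replicate 2, and levels are RPKM after rescaling, which gave all libraries the same median over shared genes. The knockdown libraries thus held 29.7% and 48.2% of the Scram level, counted from 82 and 79 reads against 334 and 571, and the groups did not overlap. The share of all genes tested whose groups do not overlap was not counted. Here and below, such a statement only describes the values of the gene named. On the log2(scaled RPKM + 1) scale the differences were -1.69 and -1.03, and the fitted difference was -1.36 (SE 0.22, 2 libraries each; limma, adjusted p = 0.747 over all genes tested). Footprints on Abcf1 differed by -1.44 and -0.98. In fibroblasts of METTL3 knockdown Abcf1 stood at 38.0 and 54.8, and shABCF1 differed from it by -1.32 and -0.92. Because whole cultures were measured, fewer expressing cells and less RNA per cell cannot be told apart.

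The relatives of ABCF1 differed less between the groups than Abcf1 itself. Abcf3, a ribosome-associated ABC protein whose yeast relative activates the kinase GCN2, had 10.6 and 8.83 in shABCF1, against 18.5 and 13.7 in Scram, a difference of -0.67 (SE 0.20). Abcf2 had 50.3 and 52.7 in shABCF1 and 65.2 and 60.4 in Scram. Abce1, the ATPase that splits ribosomes after termination, had 73.1 and 52.8 in shABCF1 and 86.4 and 55.1 in Scram. All 3 relatives were thus lower in both pairs, with differences between -0.67 and -0.15, while across all genes tested 26.2% were lower in both pairs at any size and 21.9% higher. Of the genes listed in all 4 libraries with a mean of at least 10, 33.6% were lower in both pairs and 20.1% higher.

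Across the transcriptome no gene passed the test between shABCF1 and Scram, and the differences of the 2 pairs had little in common. Limma with the replicate number as a block called 0 of 10098 genes (0.0%; lowest adjusted p = 0.747), Abcf1 included, with 594 genes at an unadjusted p under 0.05 (5.88%). Without the block 0 genes were called and 86 were under 0.05. The differences in pair 1 and pair 2 correlated at 0.066 across the 8123 genes listed in all 4 libraries and at 0.057 across the 4570 of these with a mean of at least 10, given as a description since genes are not replicates. Their SD across genes was 0.53 in pair 1 and 0.57 in pair 2. The direction was shared in 2085 genes higher and 2251 genes lower in both pairs, and opposite in 3787. One library changes the count of calls: without shABCF1 replicate 1, where the lone shABCF1 library left is assumed to vary like the other groups, 121 genes were called (71 higher, 50 lower). Pair 1 was looked at only for the 60 of those genes listed in all 4 libraries. Of the 60, 29 had the same direction in pair 1, and 1 was past a log2 difference of 1 there.

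**Figure D1:**
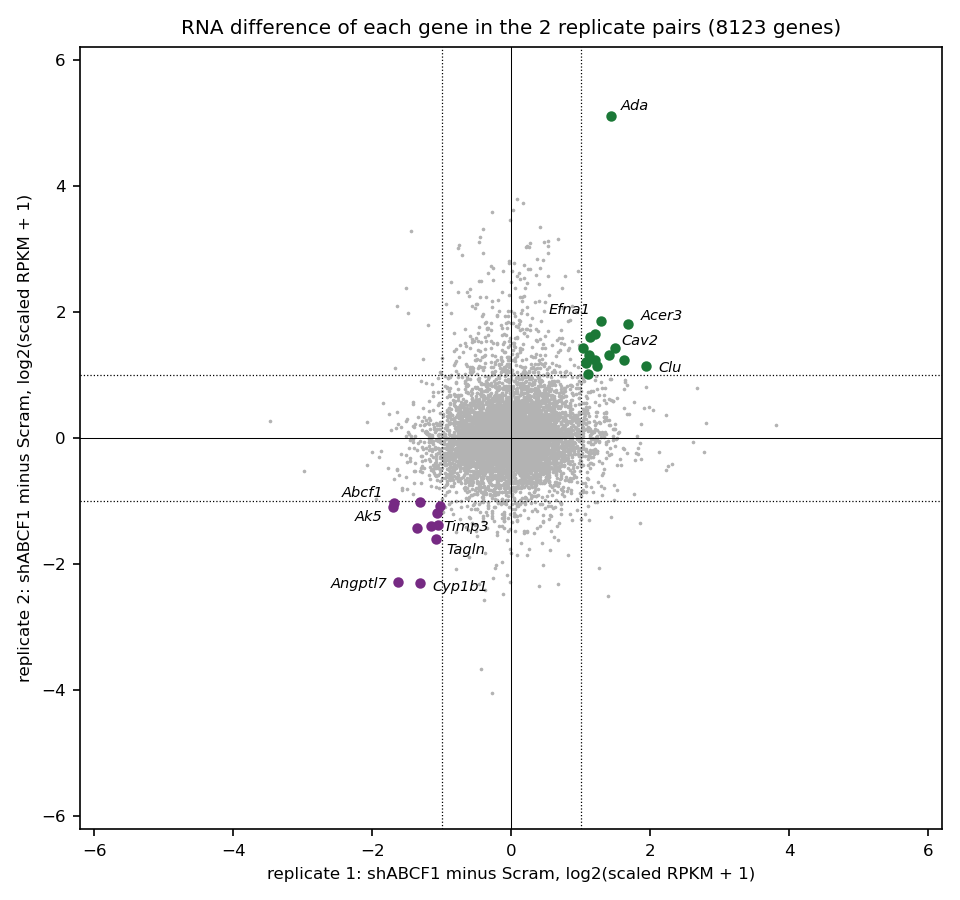
RNA difference between shABCF1 and Scram in replicate pair 1 (x axis) and pair 2 (y axis), both on the log2(scaled RPKM + 1) scale, for the 8123 genes listed in all 4 libraries. Grey points are genes, dotted lines mark a difference of 1, and the 11 purple and 16 green points are the genes past it in both pairs; the cloud shows no slope (r = 0.066).

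Genes were therefore described by size. A log2 difference of at least 1 with the same sign in both pairs was met by 27 of 8123 genes, 11 lower (0.135%) and 16 higher (0.197%), while 20 genes were past 1 in both pairs with opposite signs. Genes of opposite sign were thus 20 against 27 of the same sign. With a mean of at least 10 over the 4 libraries, 7 were lower, 5 higher and 12 opposite, of 4570. The split also depends on scaling: without scaling, where the median over all genes tested was -0.157 instead of -0.032, 10 genes were higher and 19 lower. The total was 48 with a pseudocount of 0.5, 73 with 0.1, and 11 where the filter asked for a mean of at least 10 over 6 libraries.

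The 11 lower genes held matrix, contractile and signalling genes besides Abcf1, and their footprints were mostly lower as well. Cyp1b1, a cytochrome P450 that oxidises steroids and aromatic hydrocarbons (chromosome 17, 79701537 to 79715061, minus strand), had 69.4 and 54.3 in shABCF1, against 175 and 272 in Scram, with 245 reads or more in each library. Its RNA differed by -1.81 (SE 0.35) and its footprints by -2.08 and -1.87. The groups did not overlap, and shMETTL3 lay at 168 and 101. Timp3, a matrix-bound inhibitor of metalloproteases (chromosome 10, 86300372 to 86349506, plus strand), had 115 and 68.4 in shABCF1, against 257 and 182 in Scram, a difference of -1.28 (SE 0.20). In shMETTL3 it was at 502 and 238, above Scram in both replicates. Thbs1, the matricellular protein thrombospondin-1, had 37.6 and 45.9 in shABCF1, against 79.3 and 121 in Scram.

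Tagln, which encodes the actin-binding protein transgelin of contractile cells (chromosome 9, 45929619 to 45936058, minus strand), had 58.1 and 107 in shABCF1, against 125 and 325 in Scram. Its difference was -1.35 (SE 0.19), while its footprints differed by only -0.11 in pair 1 and by -0.74 in pair 2. Lbh, a transcriptional cofactor of limb and heart development, had 32.7 and 34.5 in shABCF1, against 69.6 and 80.1 in Scram, and the groups did not overlap. Dusp3, a phosphatase acting on MAP kinases, had 7.43 and 10.6 in shABCF1, against 16.2 and 23.2 in Scram. The other 4 rest on few reads: Angptl7, a secreted angiopoietin-like protein, had 3 and 5 reads in shABCF1 against 21 and 110 in Scram, and Trib2, Ak5 and Creb3l1 had as few as 6, 6 and 14 in shABCF1 replicate 2. Of the 11 genes, 10 had lower footprints in both pairs and 0 higher, where 23.7% of the 7655 genes with RNA and footprints in every library were lower in both pairs and 29.3% higher.

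Genes just outside the size limit included growth factor and cytoskeletal genes. Fgf5, a fibroblast growth factor, had 15.5 and 27.7 in shABCF1, against 62.5 and 55.1 in Scram, with differences of -1.94 and -0.96. Krt14, a keratin, had 2.98 and 10.0 in shABCF1, against 6.85 and 23.8 in Scram. Tpm3, a tropomyosin, had 27.2 and 10.7 in shABCF1, against 55.2 and 21.8 in Scram. The formin Fmnl1 lay just outside as well, at -0.95 and -0.91.

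The 16 higher genes were mostly of low level, with a median over the genes of 5.42 scaled RPKM against 37.8 for the lower genes, and 4 of the 16 had at least 20 reads in every library, against 7 of the 11. The size rule asks for listing in all 4 libraries, and shABCF1 replicate 2, with 666738 reads, lists from about 5 reads. A gene of low level thus enters only if it reaches that number there. Among genes listed in all 4, the pair 2 median was 0.26 in the lowest of 5 classes by level and -0.10 in the highest. The part of this filter in the count of higher genes was not tested. Cav2, a caveolin of plasma membrane pits (chromosome 6, 17281185 to 17289115, plus strand), had 31.1 and 29.1 in shABCF1, against 11.1 and 11.1 in Scram, from 151 and 70 reads against 65 and 93. Its difference was 1.36 (SE 0.25), and its footprints differed by 0.60 and -0.49. Acer3, an alkaline ceramidase (chromosome 7, 98206389 to 98321208, minus strand), had 8.38 and 35.4 in shABCF1, against 1.93 and 9.41 in Scram, with footprint differences of 0.46 and -0.65. Both groups stood apart within each replicate in Acer3, although shABCF1 replicate 1 was below Scram replicate 2. Tfcp2l1, a grainyhead-like transcription factor, had 11.3 and 48.0 in shABCF1, against 4.82 and 20.5 in Scram. Chst11, a sulfotransferase that makes chondroitin sulfate, had 9.15 and 10.3 in shABCF1, against 3.96 and 3.19 in Scram.

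The largest difference of the 16 rests on a single library. Ada, adenosine deaminase, had 4.66 and 86.2 in shABCF1, against 1.10 and 1.55 in Scram, and its footprints differed by -0.62 and -0.14. Without shABCF1 replicate 1 its difference was 4.63 (limma adjusted p = 0.0425), and without the others of the 4 it was not called. The remaining 11 genes (Hist1h2ad, Twist2, Bglap3, Pink1, Clu, Cox20, Zfp867, Harbi1, Gpat3, C1rl and Efna1) had 10 reads or fewer in at least 1 library. Of the 14 higher genes with footprints in every library, 2 were higher in both pairs and 3 lower.

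**Figure D2:**
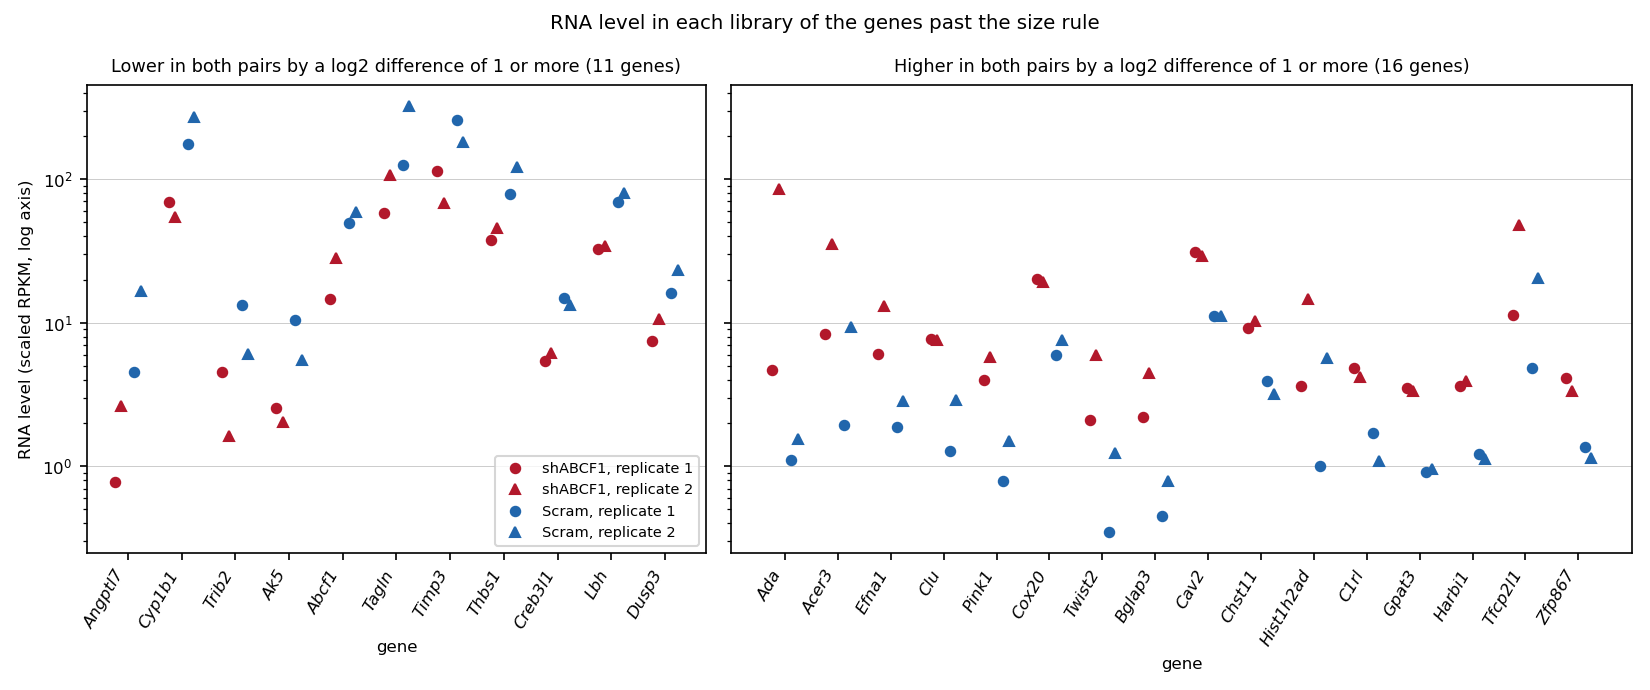
RNA level (scaled RPKM, log axis) in each library of the 11 genes lower and the 16 genes higher by a log2 difference of 1 or more in both pairs. Red marks are shABCF1 and blue marks Scram, circles replicate 1 and triangles replicate 2; the lower genes reach 325 (Tagln in Scram replicate 2), while 11 of the 16 higher genes stay under 20.

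Just outside the limit on the higher side, Rpp25l, a relative of a ribonuclease P subunit, had 11.2 and 15.9 in shABCF1, against 4.89 and 8.01 in Scram. Tmed5, a cargo receptor of the early secretory pathway, had 23.5 and 26.6 in shABCF1, against 11.1 and 14.0 in Scram. Slc39a10, a zinc importer, had 59.2 and 70.5 in shABCF1, against 29.7 and 37.3 in Scram. In these 3 genes the groups did not overlap. Snf8 and Zfp994 were past 1 in pair 2 alone. Snf8 had 3.36 and 232 in shABCF1, against 1.39 and 53.7 in Scram, and Zfp994 had 4.84 and 33.1 in shABCF1, against 2.00 and 4.42 in Scram. Without shABCF1 replicate 1 both were called, with differences of 2.13 and 2.63 (limma adjusted p = 0.0354 and 0.033).

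Genes of amino acid synthesis, uptake and tRNA charging were lower in shABCF1 in both pairs, by small amounts. Many of them are targets of ATF4, the transcription factor that cells make when amino acids are short or eIF2 is phosphorylated, and which binds composite sites with the core TGATGNAA. Of 42 tested members of 3 lists, 32 were lower in both pairs and 2 higher (76.2% lower, where 26.2% of all genes tested were), and 0 passed the test. Of the genes listed in all 4 libraries with a mean of at least 10, 33.6% were lower in both pairs and 20.1% higher. The median of the 42 members was -0.35, with -0.46 in pair 1 and -0.26 in pair 2, against -0.03 over all genes tested, with 0.00 and -0.02. Of the members, 16 of 20 synthetases, 9 of 14 synthesis enzymes and 5 of 8 transporters lay in the highest of 5 classes of genes by level, whose own medians were -0.14 and -0.10; the part of level in the lists' medians was not tested.

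Enzymes came first in size, with 13 of 14 lower in both pairs, 1 higher (Pycr1) and medians of -0.55 and -0.41. Shmt2, the mitochondrial enzyme that splits serine for one-carbon units, had 39.3 and 54.3 in shABCF1, against 69.2 and 75.9 in Scram, a difference of -0.64 (SE 0.17). Aldh18a1, which starts proline synthesis from glutamate, had 28.5 and 27.4 in shABCF1, against 49.9 and 40.5 in Scram. Aldh1l2, a mitochondrial folate dehydrogenase, had 11.2 and 6.41 in shABCF1, against 22.9 and 11.8 in Scram. The groups did not overlap in these 3 genes. Phgdh, the first enzyme of serine synthesis, had 43.1 and 161 in shABCF1, against 114 and 212 in Scram, and its groups overlapped across numbers.

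Of 8 tested transporters 6 were lower in both pairs and 0 higher, with medians of -0.24 and -0.40. Slc7a5, the light chain of the exchanger that imports large neutral amino acids (chromosome 8, 121881150 to 121907694, minus strand), had 22.9 and 38.8 in shABCF1, against 49.0 and 62.2 in Scram, a difference of -0.87 (SE 0.21). Its partner Slc3a2 had 47.8 and 37.2 in shABCF1, against 61.4 and 46.7 in Scram. Slc1a4, a carrier of alanine, serine and cysteine, had 4.15 and 3.48 in shABCF1, against 9.72 and 5.24 in Scram. The arginine and lysine carrier Slc7a1 differed by -0.26 and -0.90. Of 20 cytosolic aminoacyl-tRNA synthetases 13 were lower in both pairs and 1 higher, with medians of -0.43 and -0.16. Gars, which charges the glycine tRNA (chromosome 6, 55038007 to 55079500, plus strand), had 77.9 and 78.8 in shABCF1, against 159 and 112 in Scram, a difference of -0.76 (SE 0.20). Eprs, the synthetase for glutamate and proline, had 62.1 and 46.8 in shABCF1, against 98.7 and 66.6 in Scram. Mars and Iars, for methionine and isoleucine, differed by -0.64 (SE 0.19) and -0.60 (SE 0.20). Of 16 mitochondrial synthetases 3 were lower in both pairs and 2 higher, with medians of -0.27 and 0.37.

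The regulators themselves were mixed. Atf4 had 118 and 121 in shABCF1, against 165 and 182 in Scram, a difference of -0.53 (SE 0.16). Trib3, a pseudokinase induced by ATF4 and CHOP, had 5.27 and 5.61 in shABCF1, against 8.96 and 10.3 in Scram. Nupr1, a stress-induced nuclear protein, was higher, with 14.2 and 11 in shABCF1, against 2.25 and 8.27 in Scram. Of the 10 regulators 3 were lower in both pairs and 2 higher.

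Promoters are shown because many of the amino acid genes are targets of ATF4 and the contractile genes are targets of the factor SRF. Most members of these lists were lower in both pairs. RefSeq sequences (GRCm38.p6, 250 bases before to 50 after a gene's start, read on the gene's own strand) matched 28 of the 42 genes by symbol and 15 of the 16 tested contractile genes discussed next. Both strands were searched for TGATGNAA, for the CArG box bound by the factor SRF, and for GGAATG, a core bound by TEAD factors. TGATGNAA was in 9 of the 28 (32.1%: Asns, Got1, Pycr1, Slc1a4, Gars, Iars, Tars, Yars and Aars), in 2.42% of the promoters of tested genes and in 4.51% of all 27025. None of the 28 held a CArG box, so these matches do not overlap. The CArG box was in 3 of the 15 contractile promoters (20.0%: Vcl, Srf and Cnn2), in 1.5% of tested genes and in 1.81% of all. Of these 3, Vcl was lower in both pairs, while Srf differed by 0.18 and -0.62 and Cnn2 by 0.32 and -0.40. Of the genes with TGATGNAA, Pycr1 was higher in both pairs, Yars differed by -0.72 and 0.02, and the others were lower in both. GGAATG was in 10.7% of the amino acid promoters and 40.0% of the contractile ones, against 13.8% of tested genes and 16.6% of all. A match is a description of letters and not a site in use. In the sequences below capitals mark the match, which lies on the reverse strand in Slc1a4, Gars and Iars, and the match begins at position -4 in Slc1a4, -30 in Gars, 7 in Iars and -227 in Vcl, counted from 0 at the gene's start. The Vcl promoter also holds GGAATG, left in lower case and apart from the CArG box.
Slc1a4 (chr11:20332664-20332963, minus strand): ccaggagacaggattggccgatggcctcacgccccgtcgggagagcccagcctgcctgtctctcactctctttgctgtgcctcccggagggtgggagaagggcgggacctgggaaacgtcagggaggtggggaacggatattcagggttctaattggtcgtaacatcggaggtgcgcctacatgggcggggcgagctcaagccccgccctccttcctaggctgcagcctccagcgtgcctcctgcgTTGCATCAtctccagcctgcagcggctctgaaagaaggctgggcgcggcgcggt
Gars (chr6:55037751-55038050, plus strand): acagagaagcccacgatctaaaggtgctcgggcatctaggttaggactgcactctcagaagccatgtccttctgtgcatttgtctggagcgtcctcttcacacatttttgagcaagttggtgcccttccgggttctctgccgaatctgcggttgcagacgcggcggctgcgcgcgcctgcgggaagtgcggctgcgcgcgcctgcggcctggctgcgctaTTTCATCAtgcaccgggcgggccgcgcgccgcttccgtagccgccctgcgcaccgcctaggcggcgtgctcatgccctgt
Iars (chr13:49681880-49682179, plus strand): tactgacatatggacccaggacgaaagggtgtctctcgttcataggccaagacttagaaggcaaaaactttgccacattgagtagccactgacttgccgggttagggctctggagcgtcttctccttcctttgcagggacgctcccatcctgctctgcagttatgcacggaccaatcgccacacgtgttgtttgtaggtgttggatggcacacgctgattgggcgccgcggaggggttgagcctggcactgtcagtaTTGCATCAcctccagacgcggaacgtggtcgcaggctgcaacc
Vcl (chr14:20929148-20929447, plus strand): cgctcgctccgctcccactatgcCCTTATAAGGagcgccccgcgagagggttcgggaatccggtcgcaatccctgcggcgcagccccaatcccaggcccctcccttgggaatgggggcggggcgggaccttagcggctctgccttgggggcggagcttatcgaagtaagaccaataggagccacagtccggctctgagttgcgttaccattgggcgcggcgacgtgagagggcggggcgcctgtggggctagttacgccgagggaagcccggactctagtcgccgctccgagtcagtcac

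Footprints on the amino acid genes did not follow their RNA. Of 37 members with footprints in every library, 7 were lower in both pairs and 8 higher, with medians of 0.09 and -0.03, where footprints over all genes had medians of 0.02 and 0.03. Slc7a5 footprints differed by 0.67 and -0.04 and Gars footprints by 0.33 and -0.03, while those of Slc1a4 differed by 0.44 and 0.50. A test of RNA against footprints was not run for these lists.

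**Figure D3:**
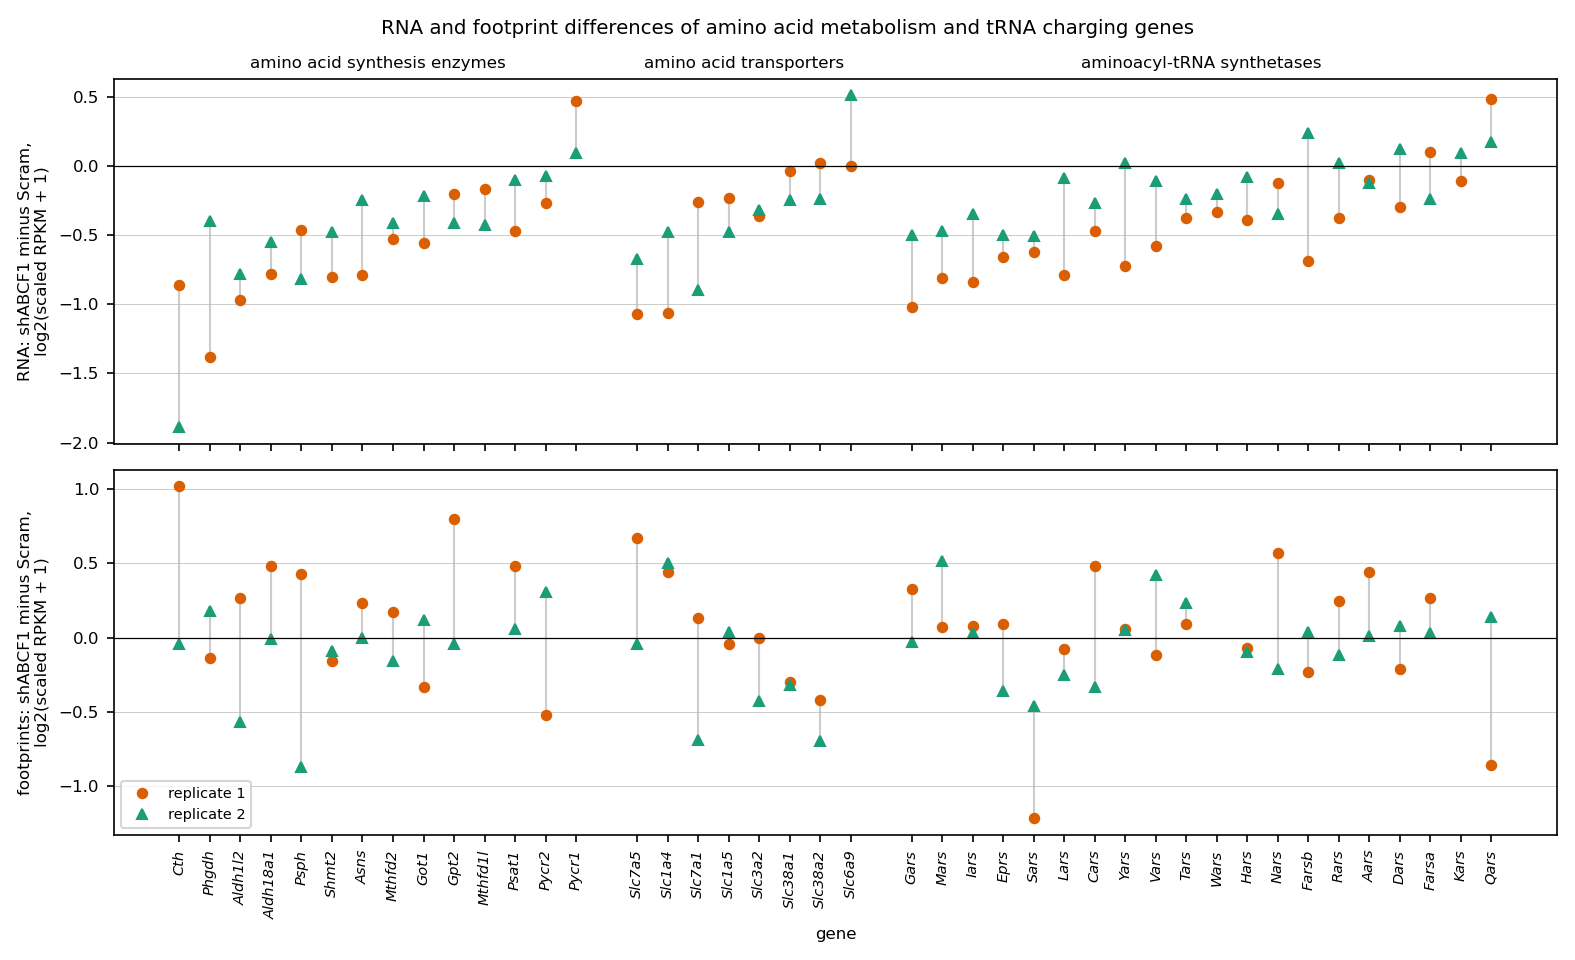
Difference between shABCF1 and Scram on the log2(scaled RPKM + 1) scale for the 42 tested genes of amino acid synthesis, uptake and tRNA charging, in RNA (top) and in footprints (bottom; 37 genes with footprints in every library). Circles are replicate pair 1 and triangles pair 2; RNA lies below 0 in both pairs for 32 genes and footprints for 7.

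Many actin-binding and matrix genes were also lower in both pairs. The contractile list holds targets of SRF, the factor that reads actin dynamics, and 12 of its 16 tested members were lower in both pairs and 0 higher, with medians of -0.27 and -0.44; 15 of the 16 lay in the highest level class. Besides Tagln, the focal adhesion protein vinculin (Vcl) had 104 and 85.5 in shABCF1, against 161 and 150 in Scram, a difference of -0.72 (SE 0.16), with footprint differences of -0.79 and -0.44. Smooth muscle actin (Acta2) had 473 and 421 in shABCF1, against 634 and 675 in Scram, and its footprints differed by 0.77 and -0.10. Tropomyosin 1 (Tpm1) had 43.8 and 350 in shABCF1, against 108 and 509 in Scram. The groups did not overlap in Vcl and Acta2. Against shMETTL3 the list's medians were -0.03 and -0.13, and in shMETTL3 against the same Scram libraries they were -0.22 and -0.36.

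Of 20 tested matrix glycoproteins and inhibitors 12 were lower in both pairs and 0 higher, with medians of -0.20 and -0.63. Fibronectin (Fn1), which cells assemble into fibrils through integrins, had 555 and 380 in shABCF1, against 1570 and 665 in Scram. Its RNA difference was -1.15 (SE 0.22) and its footprint differences were -1.27 and -0.61. Biglycan (Bgn), a small proteoglycan, had 46.9 and 23.5 in shABCF1, against 82.1 and 43.5 in Scram. The Fn1 groups did not overlap, whereas shABCF1 replicate 1 was above Scram replicate 2 in Bgn. Collagen chains were closer to the background, with 7 of 15 lower in both pairs, 3 higher and medians of -0.30 and -0.06. Col6a1 had 53.5 and 26.1 in shABCF1, against 73.4 and 47.1 in Scram, and Col5a2 had 89.4 and 183 in shABCF1, against 139 and 252 in Scram. Col3a1, an abundant fibrillar chain and a fibroblast marker, was slightly higher, at 250 and 521 in shABCF1, against 228 and 441 in Scram.

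Matrix proteases differed between the pairs as a list, with medians of 0.38 and -0.49, yet 4 of 9 were lower in both and 0 higher. Mmp2, a gelatinase, had 39.2 and 44.5 in shABCF1, against 75.7 and 63.0 in Scram, a difference of -0.71 (SE 0.19). Mmp14, which activates it on the cell surface, had 25.6 and 27.2 in shABCF1, against 43.2 and 35.3 in Scram. Adamts1, a secreted metalloprotease, had 17.7 and 18.4 in shABCF1, against 33.9 and 38.8 in Scram, and its footprints differed by -0.54 and -1.25. In these 3 genes the groups did not overlap.

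Ribosomal protein and ribosome biogenesis genes were lower mainly in pair 1. Of 80 tested ribosomal protein genes 47 were lower in both pairs and 4 higher (58.8% lower), with medians of -0.50 in pair 1 and -0.10 in pair 2, and 43 of 47 large-subunit and 32 of 33 small-subunit genes lay in the highest level class. Their short, similar sequences and many pseudogenes make the split of reads between copies uncertain. Rps4x had 233 and 267 in shABCF1, against 388 and 341 in Scram, and Rpl6 had 110 and 391 in shABCF1, against 188 and 479 in Scram. Rps23 had 29.7 and 27.1 in shABCF1, against 98.5 and 43.2 in Scram. Footprints on 59 of these genes had medians of -0.14 and 0.14, with 4 lower in both pairs and 18 higher.

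Of 25 factors that build ribosomes in the nucleolus 13 were lower in both pairs and 0 higher, with medians of -0.84 and -0.07. The methyltransferase Nop2 had 29.4 and 44.2 in shABCF1, against 65.0 and 60.0 in Scram. The RNA helicase Ddx21 had 28.5 and 28.3 in shABCF1, against 61.3 and 39.0 in Scram. Utp20, a component of the small-subunit processome, had 11.2 and 12.2 in shABCF1, against 32.5 and 15.6 in Scram. In all 3 the difference was larger in pair 1 than in pair 2, as in the list. Footprints on the list had medians of -0.68 and 0.03. The RNA median was -0.48, and it was -0.09 without shABCF1 replicate 1, -0.88 without shABCF1 replicate 2 and -0.22 without Scram replicate 1.

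The initiation factors, among them the partners of ABCF1, were near the rest of the transcriptome in pair 2. Of 19 tested members of the eIF2, eIF2B and start-site list 8 were lower in both pairs and 3 higher, with medians of -0.25 and -0.05. Eif1, the factor that guards start-codon choice, had 139 and 232 in shABCF1, against 187 and 280 in Scram, and its paralogue Eif1b had 10.4 and 9.92 in shABCF1, against 7.10 and 7.12 in Scram. These relatives thus lay on opposite sides of 0 in both pairs. The eIF4F list had 7 of 14 lower and 1 higher in both pairs with medians of -0.30 and -0.08, and eIF3 8 of 13 lower and 2 higher with medians of -0.37 and -0.07. Elongation and termination factors had 7 of 9 lower and 1 higher in both pairs, with medians of -0.72 and -0.17. Eef2, which moves the ribosome along the mRNA, had 341 and 565 in shABCF1, against 563 and 659 in Scram. Eif5a, an elongation factor that relieves stalls at prolines, had 196 and 434 in shABCF1, against 373 and 535 in Scram.

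Immediate early, inflammatory and sterol genes were lower mainly in pair 2, as they were in shMETTL3. Immediate early genes, which growth signals switch on within minutes, had medians of 0.37 in pair 1 and -1.34 in pair 2 over 25 genes, and inflammatory NF-kB targets 0.00 and -1.04 over 14. In shMETTL3 against the same Scram libraries the medians were 0.10 and -1.45 for immediate early and -0.12 and -1.59 for NF-kB genes. These comparisons share their Scram libraries. Against shMETTL3, without any Scram library, the medians in shABCF1 were 0.09 and 0.00 for immediate early and 0.10 and 0.28 for NF-kB genes. Without Scram replicate 2 the medians against Scram were 0.33 for immediate early and 0.16 for NF-kB genes. Without shABCF1 replicate 2 they were 0.16 for immediate early and -0.30 for NF-kB genes, so the sign of the first list changed without either replicate 2 library and that of the second without the Scram library.

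Ptgs2, the inducible cyclooxygenase, had 14.5 and 4.09 in shABCF1, against 17.7 and 82.5 in Scram, with 14.0 and 2.74 in shMETTL3. Scram replicate 2 was the only high library. Vcam1, an adhesion molecule, had 31.4 and 10.2 in shABCF1, against 44.7 and 31.7 in Scram, and 12.7 and 7.05 in shMETTL3, so the shABCF1 libraries lay between the others within each replicate. The growth factor Csf1 had 23.0 and 45.2 in shABCF1, against 50.8 and 66.7 in Scram, a difference of -0.83 (SE 0.23) that was present in both pairs. The AP-1 member Fosl2 had 33.5 and 15.5 in shABCF1, against 36.9 and 42.4 in Scram.

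Sterol synthesis genes, which SREBP2 drives when membranes lack cholesterol, had medians of -0.02 and -1.09 over 23 genes, with 12 lower in both pairs and 0 higher. In shMETTL3 against Scram they had 0.07 and -0.87, and in shABCF1 against shMETTL3 -0.30 and -0.22. The median against Scram was -0.11 without Scram replicate 2 and -0.36 without shABCF1 replicate 2, against -0.66 with all libraries. Some members were lower in both pairs to a like degree. Sqle, the squalene epoxidase, had 24.1 and 26.0 in shABCF1, against 44.5 and 53.1 in Scram, a difference of -0.93 (SE 0.22), with footprint differences of -0.30 and -0.53. Lss, the next enzyme of the pathway, had 6.99 and 9.02 in shABCF1, against 12.8 and 19.1 in Scram. In both genes the groups did not overlap. Fatty acid synthesis genes had medians of -0.20 and -0.57, with 6 of 11 lower in both pairs and 0 higher. Fatty acid synthase (Fasn) had 36.1 and 57.4 in shABCF1, against 60.1 and 94.4 in Scram, with footprint differences of -0.58 and -0.62, and Acly, which supplies its acetyl-CoA, had 36.7 and 40.3 in shABCF1, against 51.4 and 59.4 in Scram.

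**Figure D4:**
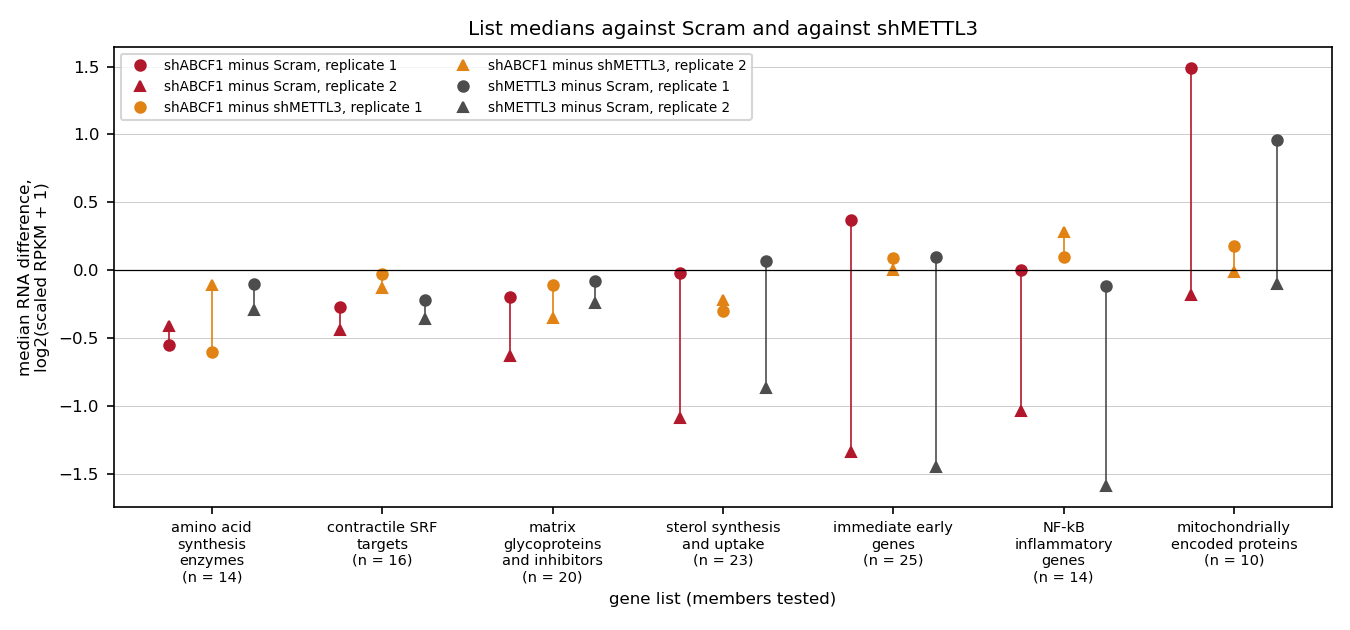
Median RNA difference on the log2(scaled RPKM + 1) scale of 7 gene lists in shABCF1 against Scram (red), in shABCF1 against shMETTL3 (orange) and in shMETTL3 against Scram (grey), which share libraries. Circles are replicate pair 1 and triangles pair 2; sterol, immediate early and NF-kB genes are low in pair 2 wherever Scram is subtracted and lie between -0.30 and 0.28 without it.

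Interferon-stimulated genes showed no shared direction, while nucleic acid sensing genes had small positive medians in both pairs. Of 32 named interferon-stimulated genes 16 were tested, with 4 lower and 3 higher in both pairs and medians of -0.04 and -0.09. Ddx58, the RNA sensor RIG-I, had 8.56 and 10.3 in shABCF1, against 5.05 and 6.49 in Scram, and Xaf1, an interferon-induced cofactor of cell death, had 4.55 and 3.07 in shABCF1, against 1.61 and 1.63 in Scram. Isg15, a ubiquitin-like modifier, had 1.49 and 0 in shABCF1, against 4.31 and 3.45 in Scram, at the edge of what replicate 2 files list. The direction of the list's median was not stable, with -0.17 to 0.08 over 16 alternatives. Nucleic acid sensors and their partners had 1 of 11 lower and 5 higher in both pairs, with medians of 0.05 and 0.19, and the median over both was -0.02 to 0.19 over 16 alternatives. The helicase Ddx41 was the lower member, with 11.7 and 8.77 in shABCF1, against 20.5 and 14.5 in Scram, and Eif2ak2, the kinase PKR, had 13 and 10.0 in shABCF1, against 9.82 and 7.72 in Scram.

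Cell cycle genes were lower mainly in pair 1. DNA replication genes had 17 of 38 lower and 4 higher in both pairs, with medians of -0.35 and -0.02, and genes of G2 and mitosis had 11 of 32 lower and 1 higher in both pairs, with medians of -0.39 and 0.16. Fen1, a flap nuclease, had 26.1 and 37.4 in shABCF1, against 52.6 and 45.7 in Scram, and Pcna, the sliding clamp, had 46.3 and 16.5 in shABCF1, against 74.8 and 20.9 in Scram. Rrm2, the small subunit of ribonucleotide reductase, was higher, at 56.9 and 220 in shABCF1, against 41.6 and 91.8 in Scram. Targets of p53 had 7 of 19 lower and 1 higher in both pairs. Mdm2, the ubiquitin ligase of p53, had 13.8 and 7 in shABCF1, against 17.3 and 13.8 in Scram, and the kinase Plk2 had 43.9 and 19.9 in shABCF1, against 76.7 and 87.5 in Scram.

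Iron and redox genes had 7 of 14 lower and 2 higher in both pairs, with medians of -0.05 and -0.39. Hmox1, heme oxygenase, had 37.1 and 29.7 in shABCF1, against 65.5 and 85.4 in Scram, a difference of -1.15 (SE 0.29), and Gclm, a subunit of the enzyme that starts glutathione synthesis, had 13 and 6.92 in shABCF1, against 17.5 and 11.3 in Scram. Hmox1 groups did not overlap, yet its footprints differed by 0.33 and -2.05. Osgin1, a target of the antioxidant factor NRF2, went the other way, with 8.97 and 125 in shABCF1, against 6.27 and 16.9 in Scram, and without shABCF1 replicate 1 it was called, with a difference of 3 (limma adjusted p = 0.033). Lysosome and autophagy genes had medians of 0.45 and -0.20 with 0 of 27 lower and 6 higher in both pairs, Ctsz, a cysteine protease, among them at 51.9 and 67.9 in shABCF1, against 31.6 and 44.4 in Scram. Glycolysis and hypoxia genes had medians of 0.36 and -0.13, and Pdk1, the kinase that shuts pyruvate out of mitochondria, had 6.61 and 1.75 in shABCF1, against 0.987 and 0.567 in Scram.

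Mitochondrially encoded transcripts were higher in pair 1 and not in pair 2. Their medians were 1.49 in pair 1 and -0.18 in pair 2 over 10 genes, and 0.96 and -0.10 in shMETTL3 against the same Scram libraries. They took 1.51% and 0.317% of the reads in shABCF1, against 0.66% and 0.434% in Scram. These shares are of all assigned reads, with Lars2 and Tmem38b counted in. Lars2 and Tmem38b held 41.6% and 10.6% of the reads in shABCF1 replicate 2 and 35.4% and 8.21% in Scram replicate 2. The shares of replicate 2 are lowered by this and cannot be set against those of replicate 1. The list's median was -0.15 without Scram replicate 1 and 0.12 without shABCF1 replicate 1, against 0.72 with all libraries. Only mt-Nd6, a complex I subunit and the one protein gene of the light strand, was higher in both pairs, with 1020 and 701 in shABCF1, against 396 and 476 in Scram. Nuclear respiratory chain subunits had 26 of 76 lower and 12 higher in both pairs and medians of -0.05 and -0.07. Atp5h, a stalk subunit of ATP synthase, had 42.9 and 10.0 in shABCF1, against 77.8 and 24.4 in Scram. Mitochondrial ribosomal proteins had medians of -0.09 and -0.01 over 77 genes, and proteasome subunits -0.17 and -0.06 over 31, with 12 lower and 5 higher in both pairs. Writers, erasers and readers of m6A had medians of 0.00 and 0.14 over 17 genes.

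The remaining lists of structural and protein-folding genes had small medians. Integrins had 0.23 and -0.13 over 9 genes, collagen modifying enzymes 0.11 and -0.10 over 17, and targets of YAP and TGF-beta 0.00 and -0.20 over 14, with 5 lower and 1 higher in both pairs. Cytoplasmic actins, tubulins and vimentin had -0.44 and -0.11 over 13 genes, with 6 lower in both pairs and 0 higher. Heat shock chaperones had -0.05 and -0.07 over 15 genes and endoplasmic reticulum chaperones 0.19 and -0.21 over 20. Replication-dependent histones, whose transcripts carry no poly(A) tail, had 0.11 and 0.00 over 36 genes, with 8 lower and 12 higher in both pairs. The sign of the median was opposite under 5 of 16 alternatives for collagen modifying enzymes, 7 for endoplasmic reticulum chaperones and 4 for histones.

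**Figure D5:**
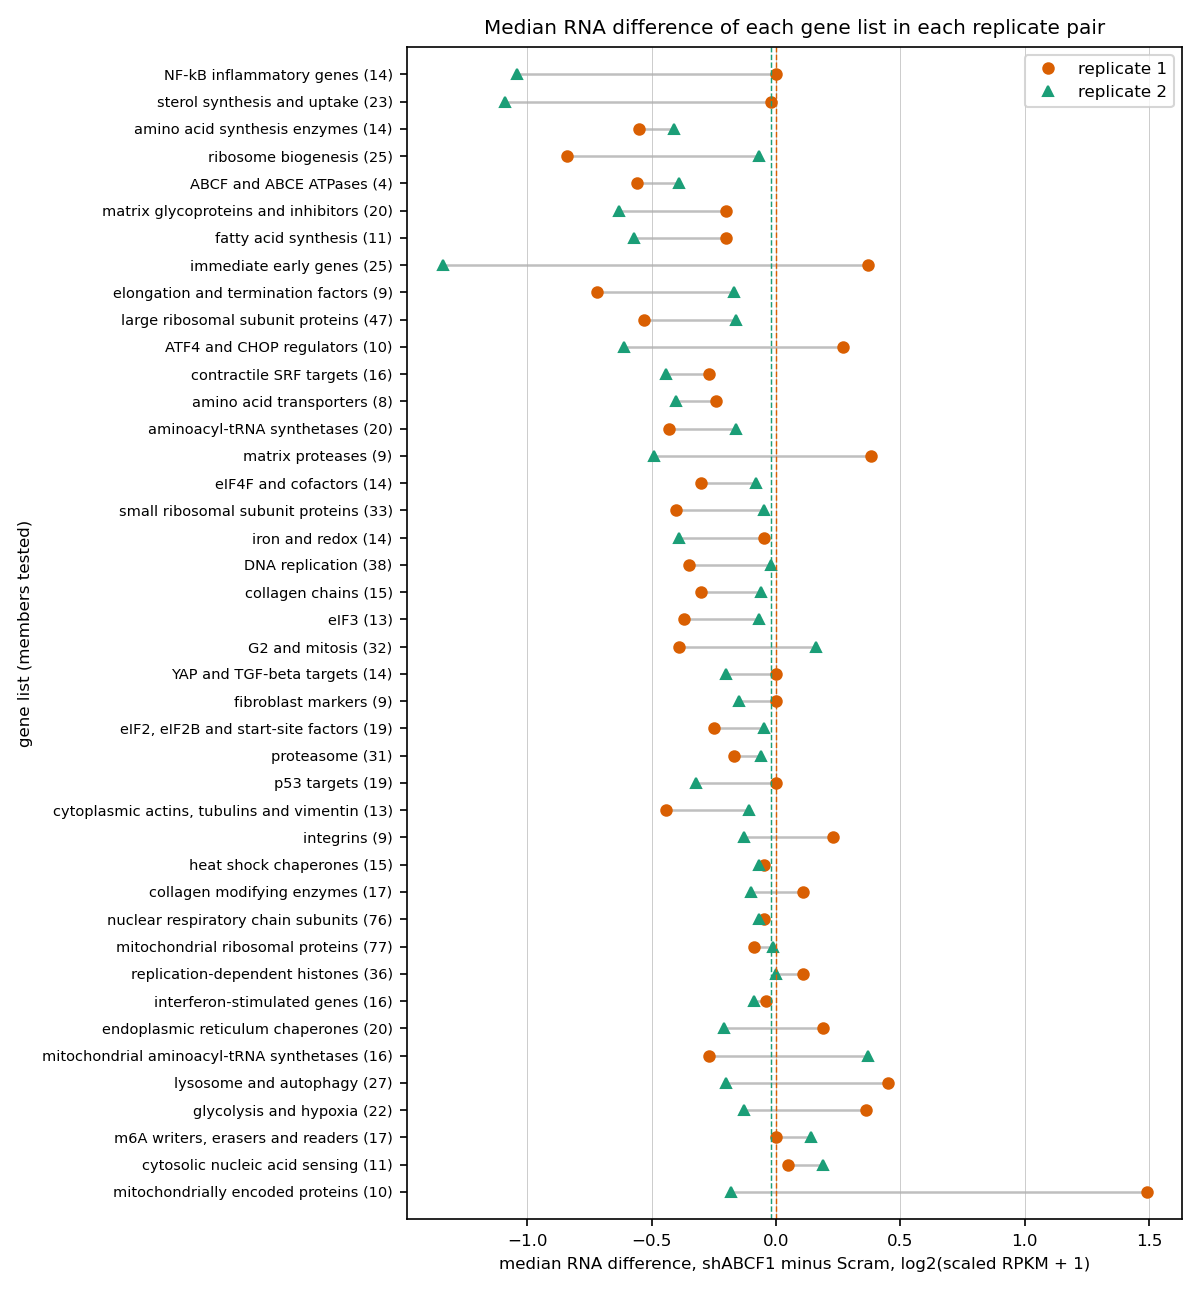
Median RNA difference between shABCF1 and Scram of each gene list with at least 4 tested members, on the log2(scaled RPKM + 1) scale, in replicate pair 1 (circles) and pair 2 (triangles), with the medians of all genes tested as dashed lines at 0.00 and -0.02. Amino acid, contractile and ABCF lists lie left of these lines in both pairs with a short distance between pairs. Other lists do so too, among them proteasome, eIF4F and collagen chains, while immediate early and mitochondrially encoded genes span the lines.

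Footprint libraries of the same replicate number shared part of the RNA differences. Across 7655 genes listed in every library, the RNA and footprint differences correlated at 0.41 in replicate 1 and at 0.33 in replicate 2, but at -0.03 and 0.09 when RNA of one number was set against footprints of the other. The footprint differences of the 2 pairs correlated at 0.14. These are descriptions across genes, and RNA and footprint libraries of one number may share their culture, which the sources used here do not say. RNA differences thus correlated more with footprint differences of their own replicate number than with RNA differences of the other number.

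Against shMETTL3, a comparison that uses no difference from Scram, the shABCF1 libraries again gave 0 called genes (0.0%; limma with the replicate block, lowest adjusted p = 0.398), with 1068 of 10098 at an unadjusted p under 0.05 (10.6%) and 250 without the block. Without shABCF1 replicate 1 the count was 195, on a lone shABCF1 library. Amino acid synthesis enzymes had medians of -0.60 and -0.11 in this comparison, and synthetases -0.41 and -0.17. Ribosome biogenesis genes had -0.85 and -0.16, and large-subunit proteins -0.38 and -0.16, so the larger difference again lay in pair 1. Tagln was at 81.3 and 171 and Acta2 at 252 and 238 in shMETTL3, so shABCF1 was below it in Tagln and above it in Acta2.

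Few genes were listed in one group only. Sv2b, a synaptic vesicle glycoprotein, was the only tested gene listed in both shABCF1 libraries, at 0.712 and 60.1, and in neither Scram library. The reverse held for 9 tested genes, among them Hsd17b7, a sterol synthesis enzyme at 0.322 and 10.4 in Scram, and Snx10, a sorting nexin at 0.481 and 10.1 in Scram. A gene listed at 0 in replicate 2 may hold up to about 5 reads, so no fold is given.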

How the data were processed

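RNA-seq and ribosome footprint libraries of mouse embryonic fibroblasts were deposited by the authors as RPKM per transcript, normalized within each library. Per the submitters' processing notes the tools include cutadapt and Bowtie and the build is GRCm38, with no version or setting named in those notes. Of 22112 transcripts 22017 matched GENCODE M21 and 95 did not. For the 13389 genes, 4653 with more than 1 transcript, the transcript listed in the most RNA-seq libraries was kept. Lars2 and Tmem38b were left out, and libraries were rescaled to the same median over the genes that all 6 list. Reads were recovered from the RPKM steps only to describe depth, with 80.4 to 85.4% of the values whole within 0.02, so no count test was run. Genes with a mean of at least 1 scaled RPKM entered limma 3.58.1 (R 4.3.3) on log2(scaled RPKM + 1), with the 4 libraries and the 2 shMETTL3 libraries in 1 fit (2 residual df) and the replicate number as a block. Libraries of the same number were treated as pairs, and their deviations from their group means correlated at 0.861 to 0.91. These values take up any difference shared by a number, the listing of transcripts included. They therefore cannot show how the samples were paired. P-values were adjusted after Benjamini-Hochberg over all genes tested, with a threshold of 0.05. An exact permutation test of 2 libraries against 2 that ignores the replicate number cannot go below p = 0.333. Permuting within the number leaves fewer arrangements and a higher limit.

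Named by rule were Abcf1 and its relatives, the 12 genes per direction with the largest smaller-of-both-pairs difference at a mean of at least 10, the 4 genes per list with the lowest p, and genes listed in 1 group only. Low-level genes past 1 in both pairs, genes with a promoter match and single genes such as Pycr1 were named after their values were seen. Genes and the 50 lists were chosen with earlier results of these data known. The script was tested on simulated data. The 15 alternatives changed the pseudocount, filter, scaling, transcript choice, block and libraries. Some genes are not reported here.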

Additional observations from a re-analysis of the deposited data

How the results depend on the processing

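The count of called genes stayed at 0 in both comparisons under each alternative except the one without shABCF1 replicate 1; leaving out 1 library at a time gave 0 to 121 calls against Scram and 0 to 195 against shMETTL3. Without the replicate block 0 genes were called in both, with 86 and 250 at an unadjusted p under 0.05 (limma), where the paired fit had 594 and 1068. The count of genes past 1 in both pairs, 27 in all, 16 higher and 11 lower, was 48 with a pseudocount of 0.5 and 73 with 0.1, of which 35 and 57 were higher. It was 11 with a mean of at least 10, 4 higher and 7 lower. Without scaling 10 were higher and 19 lower. The Abcf1 difference lay between -1.63 and -1.09. Of the list medians recomputed, 73 moved by more than the SD between the pairs and 599 did not. The recomputed medians include those of each pair alone, which mostly lie within this SD because it is taken from the same pair medians. Among the 73 were 15 without scaling and 14 without shABCF1 replicate 2. This limit is widest for lists whose pairs differ most, so a median within it need not be stable. The immediate early median went from -0.41 to 0.33 without Scram replicate 2 and stayed within its limit. Medians over members listed in all 4 libraries were an alternative chosen after seeing the data. With 666738 reads outside Lars2 and Tmem38b in shABCF1 replicate 2, genes of low level rest on few reads, and 2 libraries per group limit the test.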
